A study of Mus musculus with 2 samples.

Results

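The contractile and focal adhesion cytoskeleton was described here through 37 genes, chosen by name with earlier results of these data known. They are 5 actins, 12 proteins that bind the actin filament and 5 genes of myosin II. The others are the transcription factor Srf with its coactivator Mkl1, and 13 crosslinkers and adhesion proteins. Transcripts of these 37 genes were measured in mouse embryonic fibroblasts (MEFs), connective tissue cells grown from embryos and held in culture. All 37 were on the array, with 70 of its 41174 probes, out of 27745 gene names in all. The RNA labelled KO came from Lats2-/- C57BL/6J MEFs and the RNA labelled WT from Lats2+/+ C57BL/6J MEFs, neither of them treated. The genotype is spelled LATS2 in some labels and LAT2 in others, and is read here as Lats2. The study's methods cite earlier work for the knockout. The paper taken to describe these arrays names another deposit for its array data, so that link is assumed, and its supplement speaks of several knockout lines and of wild-type littermates without tying a line to either RNA used here. The age of the embryos and the deleted part of the gene are not given in the sources used here.

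Actin filaments, bipolar filaments of myosin II and the adhesions that anchor them to the matrix form the stress fibres with which a fibroblast pulls on its surroundings. Phosphorylation of the myosin regulatory light chain by myosin light chain kinase switches contraction on. Monomeric actin holds the coactivator MRTF in the cytoplasm, and when actin polymerises MRTF enters the nucleus and works with SRF, which binds CArG boxes in the promoters of many genes of actin, myosin and adhesion. Lats2 is a kinase of the Hippo pathway, which phosphorylates the coactivators YAP and TAZ. These act with TEAD factors, and filament tension is known to raise their activity.

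The labels describe 2 two-colour arrays. The RNA labelled KO carried the dye Cy5 on one and Cy3 on the other, and the RNA labelled WT carried the opposite dye. No replicate cultures were named, so both arrays were counted as 1 replicate with a dye swap. Differences between the RNAs have no replicate check, and no test between genotypes was made. Every ratio below is the log2 of the RNA labelled KO over the RNA labelled WT after background correction and loess. The spread between arrays measures hybridisation and dye error, with an SD of 0.137 on the log2 scale for 1 probe over 22357 probes well above background in both RNAs. No spot was saturated, and the number of arrays limits the precision of every value. In a culture of mixed cells, fewer cells of a type and less RNA per cell cannot be told apart.

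Lats2 itself was read by 4 probes. In the first of them, near the end of the transcript, the ratio was 0.51 on the array with KO in Cy5 and 0.61 on the array with KO in Cy3. The next pair gave 0.65 and 0.48, and 0.51 and 0.74. The probe farthest upstream gave -0.18 and -0.51. The targeted gene was thus higher in the RNA labelled KO by 3 of its 4 probes, against the label. Since the deleted part is not given, these probes may lie outside it and then check nothing. The RNAs are therefore called by their labels throughout. Of the fibroblast markers, 12 of 14 could be measured and all 12 were well above background, with ratios from -0.89 to 0.16 and a median of -0.40. Of the 11 markers of smooth muscle or pericytes, 6 were above background, with ratios from -1.07 to 0.61, while Des, Myocd, Hspb7, Kcnj8 and Abcc9 were not. Among the 6, Notch3 (-0.96 and -1.17), Cspg4 (-0.78 and -0.77) and Smtn (-0.69 and -0.38) had negative ratios on both arrays, the direction of Cnn1, Mylk and Myl9. Mcam (0.52 and 0.69), Rgs5 (0.25 and 0.23) and Synpo2 (0.11 and 0.08) had the opposite sign. Of the 12 skeletal muscle markers, 4 troponin genes were above background and the regulators Myod1, Myog, Myf5 and Pax7 were not. Of the 9 cardiac markers 6 were, and none of the 6 endothelial markers on the array was. Of the epithelial markers, 3 of 7 were above background, and Krt19 was called higher, at 2.09 and 2.15. Of the macrophage markers, 3 of 7 were, and Cd14 was called lower, at -1.09 and -1.0. The part of other cell types in the results was not tested.

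Most of the cytoskeleton genes differed little between the RNAs, and a few differed strongly. Cap2, a cyclase-associated protein that recycles actin monomers, was higher in the RNA labelled KO. Cnn1 (calponin 1) and Mylk (myosin light chain kinase), both parts of the smooth muscle type of contractile apparatus, were lower. Of the 37 genes, 32 had a usable probe on both arrays, and each of these 32 stood well above background in at least 1 RNA. A call required a ratio of at least 2-fold, one way, on each of the arrays, with a signal well above background in the RNA that had more of it. By that rule 1 gene was called higher and 2 lower. Over the 15877 genes above background, 2.95% were called higher and 2.59% lower, and counts of 1 and 2 cannot be set apart from that background. Centring each array on its median in place of loess made 252 calls higher and 139 lower over all genes, against 469 and 411, with the same counts of 1 and 2 among the cytoskeleton genes. At 1.5-fold, 3 of the 32 were higher (Cap2, Acta2 and Actn1) and 3 lower (Cnn1, Mylk and Myl9), where 7.05% and 7.15% of all genes were. The median ratio of the 32 was 0.07, and 0.03 and 0.12 on the single arrays, beside 0.00 over all genes.

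**Figure D1:**
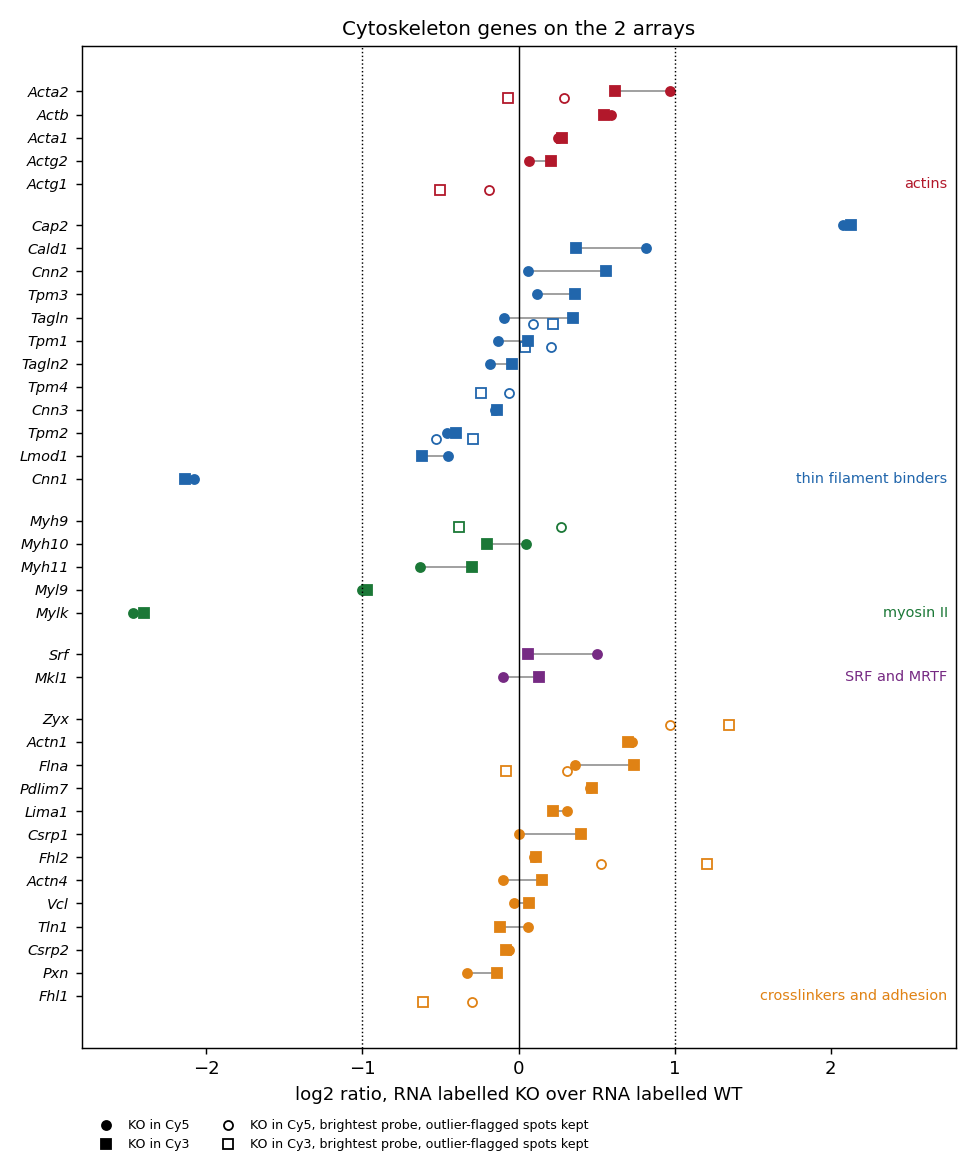
Log2 ratio of the RNA labelled KO over the RNA labelled WT for the 37 cytoskeleton genes, grouped by role, on the array with KO in Cy5 (circles) and the array with KO in Cy3 (squares). Dotted lines mark 2-fold. Open symbols give the brightest probe of 11 genes where spots with an outlier flag left it without a value on 1 or both arrays. Cap2 lies beyond the upper line on both arrays and Cnn1 and Mylk beyond the lower one, while most other genes lie near 0.

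Both arrays gave like values. Of the 32 genes, 25 had the same sign on both, and the largest difference between the arrays was 0.50, for Cnn2. The SD between arrays over these genes was 0.169. Beyond 0.137, the SD of 1 probe, 9 genes were higher on both arrays and 8 lower, where 26.3% and 27.6% of all genes were. The mean of 10 genes lay within that SD of 0.

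**Figure D2:**
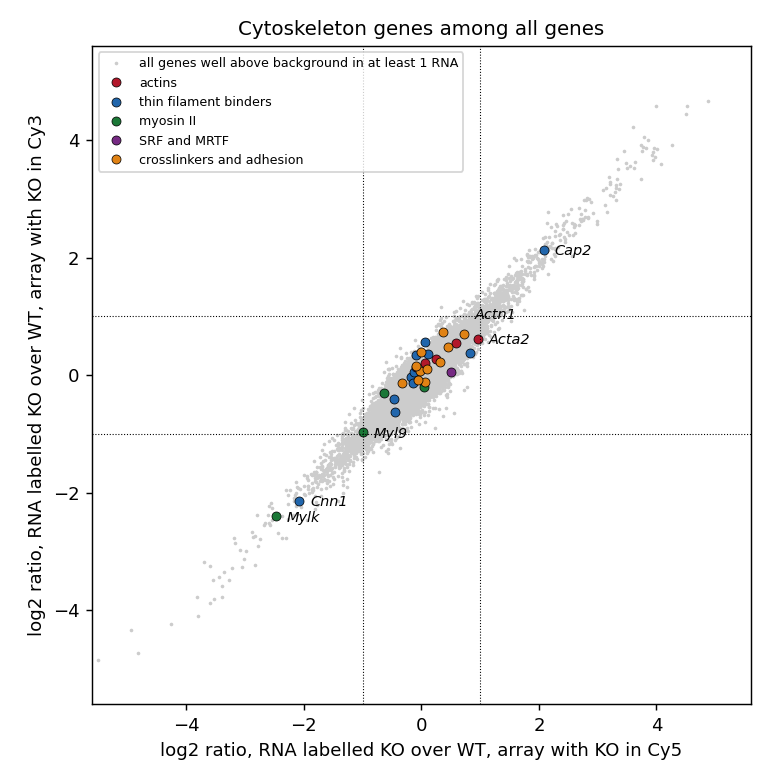
Log2 ratio on the array with KO in Cy5 (horizontal) against that on the array with KO in Cy3 (vertical). Grey points are the 15877 genes well above background in at least 1 RNA, coloured points the 32 measured cytoskeleton genes, and dotted lines 2-fold. The cytoskeleton genes lie along the diagonal, most of them between the dotted lines, with Cap2 at 2.08 and 2.13 and Mylk at -2.47 and -2.40.

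Cnn1 binds the actin filament and slows the myosin motor, and it is a late marker of smooth muscle cells and contractile fibroblasts. On the array with KO in Cy5 the scanner signal of its probe was 1600 units in the RNA labelled KO and 2683 in the RNA labelled WT. On the array with KO in Cy3 it was 641 and 7249. Cy5 signals were the brighter ones on both arrays (medians over all spots of 96.8 against 60.1 units, and of 98.5 against 58.2), and loess removes that difference. The normalised log2 levels were then 10.01 and 10.02 in the RNA labelled KO, against 12.09 and 12.16 in the RNA labelled WT. The RNA labelled KO had the lower level on both arrays, which count as 1 replicate. The ratios of -2.08 and -2.14 (mean -2.11, SD 0.042 between arrays) put the transcript at 23.2% of its WT-labelled level, 4.32-fold lower. The close relatives differed far less. Cnn2 had ratios of 0.06 and 0.56 and Cnn3 of -0.15 and -0.14.

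Mylk phosphorylates the regulatory light chain of myosin II in response to calcium. Its probe near the end of the gene, at chr16:34916500-34916559 of the mm8 build, read 195 units in the RNA labelled KO and 561 in the RNA labelled WT on the array with KO in Cy5, and 94.3 and 1375 on the array with KO in Cy3. As normalised log2 levels these were 7.26 and 7.48 in the RNA labelled KO and 9.73 and 9.88 in the RNA labelled WT. Both arrays had the RNA labelled WT clearly higher. The ratios were -2.47 and -2.40 (mean -2.44, SD 0.052), which is 18.5% of the WT-labelled level, or 5.41-fold lower. A second probe of the same transcript gave -2.31 and -2.25. Both probes lie near the end of the gene, and which of its transcripts they read was not tested. A probe for a separate clone within the gene was not above background in either RNA, at 0.28 and -0.13. The mean ratio was -3.15 by Feature Extraction's own ratios, which differ in both background correction and dye normalisation, and -1.55 as a mean over the 3 probes. Mylk was called lower either way.

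Cap2 was read by 2 probes, both at background in the RNA labelled WT. At chr13:46659791-46659850 (mm8) the signals were 434 units in the RNA labelled KO and 38.7 in the RNA labelled WT on the array with KO in Cy5, and 172 and 51.1 on the array with KO in Cy3. The RNA labelled KO had the higher normalised log2 levels, 8.43 and 7.98, against 6.35 and 5.85. Only a bound can be given where one RNA gives no signal well above background. By this Cap2 probe the RNA labelled KO was at least 4.22-fold higher. The bound sets the brighter RNA against a floor, which is the dimmest signal still well above background on that array or, where greater, the signal of the probe. The ratios themselves were 2.08 and 2.13, and 1.55 and 1.60 for the second probe, which gave a bound of at least 2.98-fold. The mean ratio was 3.26 with a smaller normexp offset of 10 and 5.14 by Feature Extraction's own ratios, whose dye normalisation differs as well. Cap1, the relative found in most cells, was looked up after its values were seen, and had ratios of -0.97 and -0.98.

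The 200 bases before the start of these 3 called genes are shown because their transcripts differed most between the RNAs. They are read on the gene's strand from RefSeq (GRCm38.p6), at chr9:22099053-22099252 for Cnn1, chr16:34784750-34784949 for the one Mylk entry and chr13:46501703-46501902 for Cap2, all on the plus strand. Capitals mark GGAATG or its complement CATTCC, the core of the M-CAT element that TEAD factors bind.

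Cnn1: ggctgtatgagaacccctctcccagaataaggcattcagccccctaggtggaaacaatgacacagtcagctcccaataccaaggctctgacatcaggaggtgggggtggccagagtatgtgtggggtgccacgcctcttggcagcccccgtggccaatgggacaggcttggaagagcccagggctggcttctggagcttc

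Mylk: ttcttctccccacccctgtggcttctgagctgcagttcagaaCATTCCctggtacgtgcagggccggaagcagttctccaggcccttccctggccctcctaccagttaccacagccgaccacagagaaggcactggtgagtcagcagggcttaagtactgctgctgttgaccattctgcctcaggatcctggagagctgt

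Cap2: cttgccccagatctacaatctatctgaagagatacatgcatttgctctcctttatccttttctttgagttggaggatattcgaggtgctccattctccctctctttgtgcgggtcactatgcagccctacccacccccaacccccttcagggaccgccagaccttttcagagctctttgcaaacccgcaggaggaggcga

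In windows from 250 bases before to 50 after the start, this motif on either strand was found once for Mylk and not for Cnn1 or Cap2. It was in 11 of the 37 windows that the table holds for 31 of the cytoskeleton genes, and in 14.7% of all 32851 windows. None of the 3 windows held an exact CArG box, which is CC, then only A or T, then GG, over 10 bases. These matches describe letters in a window and were not tested as binding sites. The Mylk probes lie near the end of the gene, and whether the transcript they read starts at this window was not tested.

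Of the 5 myosin II genes, 1 (Mylk) was called lower and none higher, where 2.59% and 2.95% of all genes above background were. The median ratio was -0.72 over the 4 measured, Mylk and Myl9 among them, beside 0.00 over all genes. With outlier spots kept it was -0.46 over all 5. Myl9, the regulatory light chain of smooth muscle and non-muscle myosin II and so the substrate of Mylk, had normalised log2 levels of 15.32 and 15.30 in the RNA labelled KO and 16.32 and 16.27 in the RNA labelled WT. Both levels in the RNA labelled KO were below both in the RNA labelled WT. Its ratios were -1.0 and -0.97, which is 50.5% of the WT-labelled level and just under the 2-fold threshold on the second array. On the array with KO in Cy5 alone Myl9 passed as well, which made 3 genes lower. Centring on the median in place of loess gave it a mean of -0.82. Myh11, the smooth muscle heavy chain, was dim in both RNAs, at -0.63 and -0.30 (mean -0.46), and -1.1 by Feature Extraction's own ratios. Myh10, a non-muscle heavy chain, had 0.05 and -0.20. The other non-muscle heavy chain, Myh9, had no usable spot on either array.

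**Figure D3:**
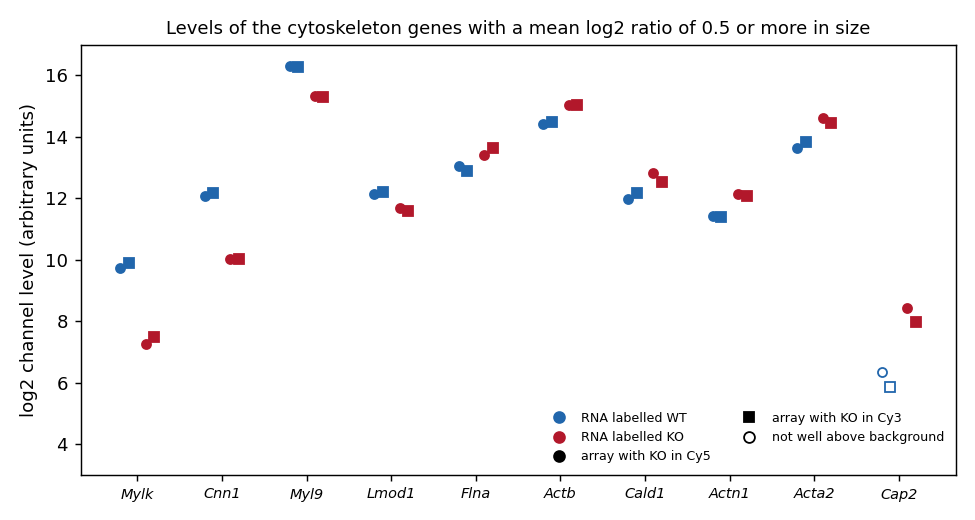
Normalised log2 level, in arbitrary units, in the RNA labelled WT (blue) and the RNA labelled KO (red) for the 10 cytoskeleton genes with a mean ratio of at least 0.5 in size, on the array with KO in Cy5 (circles) and the array with KO in Cy3 (squares). Open symbols mark a level not well above background. Levels of different genes come from different probes and are not comparable. Because the genes were picked by that ratio, the levels of the RNAs lie apart within each gene. The gaps are widest for Mylk, Cnn1 and Cap2.

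None of the actins was called. The median ratio was 0.42 over the 4 measured, and 0.14 over all 5 with outlier spots kept, which takes in Actg1 and another probe of Acta2. Actb, the main cytoplasmic actin, had normalised log2 levels of 15.02 and 15.04 in the RNA labelled KO against 14.43 and 14.49 in the RNA labelled WT. Its ratios were 0.59 and 0.55, 149% of the WT-labelled level. That probe is placed on chromosome X in the files, while Actb lies on chromosome 5, where a probe spotted 10 times gave 0.68 and 0.63. Acta1, the skeletal muscle actin, gave 0.25 and 0.28, and Actg2, the enteric smooth muscle actin, 0.07 and 0.21. Actins are nearly alike in their coding sequence. The probe sequences were not used here, so whether a probe also reads another actin was not tested.

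Acta2, the smooth muscle actin that marks contractile fibroblasts, was higher or near equal depending on the probe. The brightest of its probes with a value on both arrays had normalised log2 levels of 14.60 and 14.45 in the RNA labelled KO against 13.63 and 13.82 in the RNA labelled WT. The RNA labelled KO was the higher on both arrays. The ratios of 0.97 and 0.62 (mean 0.80, SD 0.24) are 174% of the WT-labelled level. A clone probe beside it, at chr19:34306703-34306761 (mm8), gave 0.93 and 0.93. A dim clone probe, at chr19:34319453-34319512, gave the opposite sign, -0.70 and -0.58. The brightest probe of all, spotted 10 times, gave 0.25 on the array with KO in Cy5. All 10 of its spots had an outlier flag on the array with KO in Cy3. With those spots kept it gave 0.29 and -0.07. The next brightest probe had a usable spot on the array with KO in Cy3 only, at 0.34. On the other array it gave 0.24 with its outlier spot kept. The size of the Acta2 ratio thus rests on the choice of probe.

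Among the other proteins along the filament, differences were modest and went both ways. Lmod1, a leiomodin that nucleates actin in smooth muscle, had normalised log2 levels of 11.69 and 11.60 in the RNA labelled KO against 12.14 and 12.21 in the RNA labelled WT. Both arrays put it lower in the RNA labelled KO, with ratios of -0.45 and -0.62. Cald1 (caldesmon, which blocks myosin on the filament) was the opposite case, at 12.81 and 12.53 against 11.99 and 12.16. Its ratios of 0.82 and 0.37 differed between arrays by several times the SD, and its second probe gave 0.25 and 0.45. The tropomyosins, rods that lie along the filament and set which proteins reach it, did not move as a group. Tpm2 had ratios of -0.46 and -0.40, Tpm3 of 0.12 and 0.36, and Tpm1 of -0.13 and 0.06, whose mean of -0.03 changed sign with the brightest probe kept. Tagln (SM22, a calponin relative) had -0.09 and 0.35, and Tagln2 had -0.18 and -0.04. The Tagln ratios differed in sign between the arrays.

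Srf and Mkl1, the transcription factor and the coactivator that couple actin to these genes, were measured with ratios near 0 or uncertain. Srf had normalised log2 levels of 12.06 and 11.87 in the RNA labelled KO against 11.55 and 11.81 in the RNA labelled WT. The higher level was that of the RNA labelled KO on both arrays, but the ratios of 0.50 and 0.06 differ by more than the array spread. For Mkl1, named Mrtfa in current references, the levels were 12.70 and 12.82 against 12.80 and 12.69. Which RNA was the higher differed between the arrays. The ratios were -0.10 and 0.13, and a second probe gave 0.06 and 0.12. Of the 8 related regulators measured, none was called in either direction, and Myocd, Mkl2, Abra, Elk1 and Gata6 were not well above background.

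The CArG boxes that SRF binds are shown for the cytoskeleton genes whose promoter window holds an exact one. They are shown because SRF is known to act through such boxes on many of these genes. Each line gives 30 bases on the gene's strand from RefSeq (GRCm38.p6), with the box in capitals. Srf holds a pair of boxes, and Fhl2 holds 1 box before each of its 2 starts.

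Acta1, chr8:123894829-123894858, minus strand: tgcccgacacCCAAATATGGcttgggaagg

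Actg1, chr11:120348566-120348595, minus strand: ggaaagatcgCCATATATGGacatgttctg

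Cnn2, chr10:79988534-79988563, plus strand: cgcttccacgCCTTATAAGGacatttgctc

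Fhl1, chrX:56779571-56779600, plus strand: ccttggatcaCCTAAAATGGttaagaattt

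Fhl2, chr1:43163973-43164002, minus strand: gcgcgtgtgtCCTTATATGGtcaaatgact

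Fhl2, chr1:43196838-43196867, minus strand: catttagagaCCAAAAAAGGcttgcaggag

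Lima1, chr15:99820177-99820206, minus strand: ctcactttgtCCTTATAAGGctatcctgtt

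Myl9, chr2:156775293-156775322, plus strand: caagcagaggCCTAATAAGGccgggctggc

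Srf, chr17:46556225-46556254, minus strand: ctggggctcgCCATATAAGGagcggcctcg

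Srf, chr17:46556205-46556234, minus strand: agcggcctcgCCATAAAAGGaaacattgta

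Vcl, chr14:20929161-20929190, plus strand: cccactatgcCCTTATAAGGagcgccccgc

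An exact CArG box was present in 10 of the 37 member windows, from 9 of the 31 genes, and in 1.63% of all windows. Near matches, such as ccctatatgg and ccttgtttgg in the Acta2 window, were not counted. Counted back from -1 at the base before the start, the boxes began between positions -227 and -31, and the Srf pair at -82 and -62. The mean ratios of the 7 measured genes with a box ran from -0.99 (Myl9) to 0.31 (Cnn2), with a median of 0.27. The 19 measured genes whose window held no exact box, Acta2 among them, ran from -2.44 to 2.10, with a median of 0.01. With outlier spots kept, the 9 genes with a box ran from -0.99 to 0.87 (Fhl2), with a median of 0.27. The 22 without one then ran from -2.44 to 2.10, with a median of 0.02. Genes with a box were thus found among the lower and the higher ones, and none of the 3 called genes had one in this window. Tagln, Actg2, Pxn, Csrp2, Myh11 and Actb had no entry in the promoter table.

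Among crosslinkers and adhesion proteins none was called, and the median over 11 measured genes was 0.11. Actn1, the alpha-actinin that bundles actin at adhesions and along stress fibres, had normalised log2 levels of 12.14 and 12.09 in the RNA labelled KO and 11.41 and 11.39 in the RNA labelled WT. The arrays gave nearly equal levels, with the RNA labelled KO the higher on both. Its ratios of 0.73 and 0.70 (SD 0.018) are 164% of the WT-labelled level. Its relative Actn4 had -0.10 and 0.15. Pdlim7, an adaptor that binds alpha-actinin and tropomyosin, had 0.46 and 0.47, and its 4 probes had means between 0.25 and 0.50.

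Flna (filamin A), which crosslinks actin into networks and binds integrins, had normalised log2 levels of 13.40 and 13.64 in the RNA labelled KO against 13.04 and 12.90 in the RNA labelled WT. The RNA labelled KO was the higher on both arrays. The ratios were 0.36 and 0.74, but a probe toward the start of the transcript gave -0.01 and -0.12, and the brightest probe, with its outlier spots kept, 0.31 and -0.08. The probes of Flna spread more widely than those of any other of the 14 genes with several probes above background, by 0.62 between the probe means. Lima1 (EPLIN, which stabilises filaments) had 0.31 and 0.22.

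The adhesion proteins that follow had ratios smaller in size than those of Actn1. Vcl (vinculin) had ratios of -0.03 and 0.07, with 0.40 and 0.30 for its second, dimmer probe. Tln1 (talin 1, which activates integrins) had 0.06 and -0.12, and its 3 probes had means between -0.03 and 0.08. Pxn (paxillin, an adhesion scaffold) had -0.33 and -0.14. The LIM-only proteins Csrp1 and Csrp2, which bind alpha-actinin and zyxin, had 0.00 and 0.40, and -0.06 and -0.08.

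The brightest probes of 11 cytoskeleton genes were left without a value on 1 or both arrays. Feature Extraction marks spots as outliers where their pixels are uneven or where they stand away from copies of the same probe, and such spots were left out. That removed 0.726% of all probes from 1 or both arrays but 13 of the 70 probes for the cytoskeleton genes. At a mean log2 level of 15 or more, 226 of 289 probes were lost (78.2%), among them 9 of the 10 from the cytoskeleton genes. Between 14 and 15, 66 of 501 were lost, 4 of 16 among the cytoskeleton genes. None of their 6 probes between 13 and 14 was lost, and none of their 38 below 13.

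**Figure D4:**
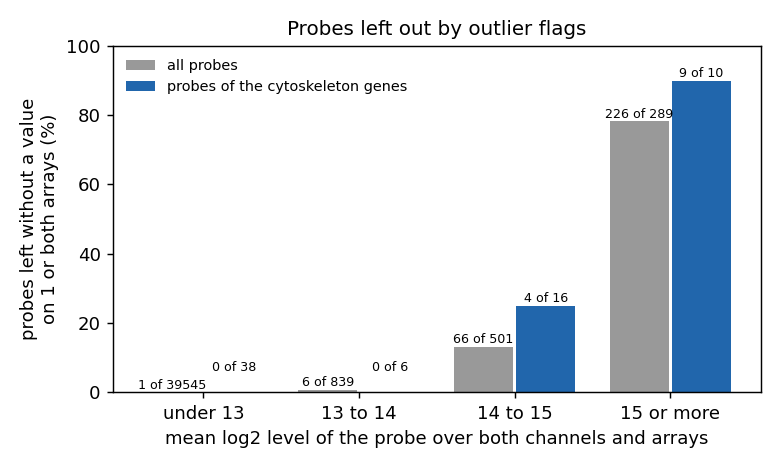
Share of probes left without a value on 1 or both arrays by outlier flags, in percent, by the mean log2 level of the probe over both channels and arrays, for all probes (grey) and for the probes of the cytoskeleton genes (blue), with counts above the bars. Losses lie almost wholly at levels of 14 or more, and reach 226 of 289 probes at 15 or more.

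Of these genes, 5 had no value on both arrays. Zyx (zyxin, which gathers at strained stress fibres) had a usable spot on the array with KO in Cy3 only, at a ratio of 1.35. With the outlier spot kept, its normalised log2 levels were 15.11 and 15.66 in the RNA labelled KO against 14.14 and 14.31 in the RNA labelled WT. Both levels were higher in the RNA labelled KO, and the ratios of 0.97 and 1.35 fell short of a call on the first array. Fhl1, a LIM protein of muscle, had -0.61 on the array with KO in Cy3, and -0.30 with the outlier spot of the other array kept. Actg1, the second cytoplasmic actin, had -0.19 and -0.50 by its brightest probe with the outlier spots kept. Its other probe was usable on the array with KO in Cy3 only, at 0.04. With its outlier spot on the other array kept it gave 0.01 there, so the Actg1 ratio rests on the choice of probe. With outlier spots kept, Tpm4 had -0.06 and -0.24, and Myh9 had 0.27 and -0.38.

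Fhl2, a LIM protein that binds SRF and integrins, was measured by a dim clone probe, at 0.10 and 0.11. Its bright probe was usable on the array with KO in Cy3 alone, where it gave 1.21, and its kept spot on the other array gave 0.53. Outlier spots at these levels were less alike between arrays than others. Over 292 such probes with a mean log2 level of 14 or more the SD between arrays was 0.303, against 0.159 over 498 probes without a flag. With all outlier spots kept, 16 of the 37 genes were higher on both arrays and 13 lower, and the calls stayed at 1 higher and 2 lower.

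Genes related to these were read from lists of the pathway that were also chosen with earlier results of these data known. The lists held 112 names, of which 100 were measured and 79 were well above background. In all, 8 were called higher and 1 lower, where 2.95% and 2.59% of all genes above background were, and the median was 0.05. Passing the 2-fold rule on each array depended on loess. Under median centring 1 gene, Pdlim2, passed on both arrays and none was called lower. All of the called genes kept their direction there, with wider gaps between arrays, such as 2.32 and 0.23 for Rhoc. Focal adhesion adaptors and kinases held 4 higher and 0 lower of 34, with a median of 0.16, and 1 and 0 under median centring. Pdlim2, which links alpha-actinin to stress fibres, had ratios of 2.11 and 2.35. Sorbs2 had 1.82 and 1.5 and Sorbs3 (vinexin) 1.14 and 1.1, both adaptors that bind vinculin. Synpo (synaptopodin, which binds alpha-actinin) had 1.08 and 1.29.

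Among 27 genes of actin assembly and turnover, 2 were called higher and 1 lower, with a median of 0.11, and 0 either way under median centring. The shares over all genes above background were 2.95% and 2.59%. Pfn2, a profilin that loads actin monomers with ATP, had ratios of 1.62 and 1.57. Tmsb10, a thymosin that holds monomers in reserve, had 1.06 and 1.29. Tmod2, a tropomodulin that caps the pointed end of the filament, had -1.13 and -1.12. Under median centring these became 2.46 and 0.79, 2.12 and 0.41, and -0.51 and -1.78, so that direction was kept but the size differed between arrays.

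Among 13 genes of myosin light chains and their regulation, 2 were called higher and 0 lower, with a median of -0.08. Over all genes above background, 2.95% were called higher and 2.59% lower. Median centring left 0 higher, and Feature Extraction's own ratios called 1 lower. The 2 higher ones were the small GTPases Rhoc, at 1.14 and 1.15, and Rnd3, at 1.37 and 1.1. At 1.5-fold they were joined by Rhob, at 1.02 and 0.60, and 3 were lower, where 7.05% and 7.15% of all genes were. The 3 lower ones were Ppp1r12a, the targeting subunit of myosin phosphatase, at -0.66 and -0.91, Ppp1r14a, an inhibitor of that phosphatase, at -1.06 and -0.87, and the kinase Cit, at -0.65 and -0.67. Of the 18 striated muscle relatives measured, 0 were called and 11 were not well above background.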

How the data were processed

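Total RNA of both genotypes was labelled with Cy3 or Cy5 and hybridised together to 2 Agilent whole mouse genome arrays with the dyes exchanged. Per the file headers and the study's methods, the authors read the scans with Agilent Feature Extraction 10.5.1.1, and they deposited mean signals and local background medians as intensity in arbitrary units. The deposited files also hold Feature Extraction's log10 ratio of Cy5 over Cy3. A deposited table of log2 ratios equals the log2 of KO over WT of the processed signals, with both arrays turned the same way, and served as an alternative. Coordinates are those of the files (NCBI36, mm8).

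Background was corrected by normexp (offset 50, which pulls dim ratios towards 0), and loess was run within each array with control spots at weight 0, in R 4.3.3 with limma 3.58.1. Spots with an outlier flag were left out. Spots of a probe were averaged, the second array was turned, and the brightest probe with a value on both arrays stood for a gene. Levels are log2 channel values after loess and Aquantile. A call needed a log2 ratio of at least 1 in size on each array and, on both, a share of at least 0.5 of the spots well above background in the RNA with the higher level.

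The members and lists were chosen with earlier results of these data known. Every member is named. Values on each array are given in full for members called, for those with a mean log2 ratio of at least 0.5 in size, for Srf and Mkl1, and for those whose probes lay over 1 apart. Genes of the related lists are named when called, and others are said to have been looked up later, as were the genes named at 1.5-fold and the cell type markers. Of the 70 probes, 56 matched the reference by accession, and 1 of 36 genes so matched has another symbol there. In simulated data of 41174 probes with known changes, 98.7% of changes of 2.5-fold or more were called, 0 of 50 at 1.5-fold, and 0 probes without a change. The changes were put only on probes well above background in both RNAs, and the simulated call had no background condition. Noise was normal and of fixed width. The simulation thus does not cover probes at background in 1 RNA, such as those of Cap2, or probes with a wider spread. Tables and plots were made with Python 3.11.15 (matplotlib 3.10.9, numpy 2.4.6, pandas 2.3.3). The alternatives were Feature Extraction's and the deposited ratios, median centring, Aquantile, other background corrections, the mean over probes, each array alone, outlier spots kept (added after seeing the data), limma's test, the methods' t-test and a 1.5-fold threshold.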

Additional observations from a re-analysis of the deposited data

Results flagged for a closer look

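The brightest probe of 11 cytoskeleton genes was left without a value on 1 or both arrays by outlier flags, and so entered none of the comparisons. With those spots kept, the mean log2 ratio of the RNA labelled KO over the RNA labelled WT was 1.16 for Zyx, 0.87 for Fhl2, 0.16 for Tagln, 0.13 for Tpm1, 0.12 for Flna and 0.11 for Acta2. It was -0.06 for Myh9, -0.15 for Tpm4, -0.35 for Actg1, -0.41 for Tpm2 and -0.46 for Fhl1. The widest gap between arrays over the 13 probes concerned was 0.68, for Fhl2, and the SD between arrays was 0.252. Zyx and Fhl2 were the ones with a kept mean beyond 0.5 in size. All these signals were well above background in both RNAs.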

How the results depend on the processing

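No paired analysis was possible because both arrays make up 1 replicate per genotype. The counts of 1 gene called higher and 2 lower among the cytoskeleton genes were unchanged under the alternatives run, except for 3 lower on the array with KO in Cy5 alone, 3 higher and 3 lower at 1.5-fold, and 0 and 0 for the methods' t-test after Benjamini-Hochberg adjustment. The methods' t-test at an unadjusted threshold of 0.05 made the counts 1 and 2, as did limma's test over both arrays with adjusted p below 0.05. Both compare the RNAs hybridised, not the genotypes. Over all genes, Feature Extraction's own ratios and the deposited table each gave 941 higher and 866 lower (944 and 867 with outlier spots kept in the deposited table), median centring 252 and 139, a 1.5-fold threshold 1119 and 1135, and the adjusted t-test 0 and 0 (408 and 356 unadjusted, 517 and 486 by limma). Among all related genes, 8 higher became 1 under median centring, 4 under the methods' t-test, 0 after its adjustment and 15 at 1.5-fold. The 1 lower became 3 with either set of Feature Extraction ratios (also with outlier spots kept), with offset 10 and with no background subtraction, 2 on the array with KO in Cy5 alone, 8 at 1.5-fold, and 0 under median centring, the mean over probes and the adjusted t-test. Of 384 recomputed ratios of 32 cytoskeleton genes under 12 alternatives, 335 stayed within the SD between arrays and 12, in 8 genes with a ratio of at most 0.13 in size, changed sign, none of them of a called gene. The cause of these changes was not tested. One pair of RNAs, and dim signals for Cap2, Myh11 and the low side of Mylk, limit what these arrays can show.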
